A study of Mus musculus with 16 samples.

Results

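The 8 genes described here, Gas5, Snhg1, Snhg3, Snhg4, Snhg5, Snhg6, Snhg8 and Snhg12, are small nucleolar RNA (snoRNA) host genes. They were taken by symbol from the 24972 rows of a total RNA table and a polyribosomal RNA table, and all 8 had a row in both. Cells were neural stem cells, called NSCs below. They came from the ventricular-subventricular zone, the germinal layer beside the lateral ventricle, and were cultured from neonatal mice with fibroblast and epidermal growth factor and passaged once. Wild-type cultures were Tsc2 wild type/wild type and mutant cultures were Tsc2 mutant/mutant. Per the study's methods, pups carried a tdTomato reporter and a Nestin promoter transgene for Cre that tamoxifen activates (CRE-ERT2), with control or conditional Tsc2 (Tsc2tm1.1Mjg) alleles, and were injected with tamoxifen. The sources used here leave it unclear if wild-type pups had Cre too. The loss of Tsc2 therefore rests on recombination in Nestin-expressing cells and their descendants. There were 4 wild-type and 4 mutant cultures, each sequenced once from total RNA and once from the heavy, polyribosomal part of a sucrose gradient, which made 16 libraries in 4 groups. Nothing in the labels ties a culture to an animal or litter, so p-values cover the spread among these cultures only.

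A snoRNA host gene is transcribed and spliced like an mRNA, and the snoRNAs are cut from its introns. Box C/D snoRNAs (symbols beginning Snord) guide methylation of ribosomal RNA and box H/ACA snoRNAs (Snora) guide pseudouridylation. The spliced exons of a noncoding host carry only short reading frames. They can be bound by ribosomes and are then degraded by nonsense-mediated decay, the pathway that removes transcripts with an early stop codon. Many hosts, like the mRNAs of ribosomal proteins, begin with a run of pyrimidines (C or T), the 5′ terminal oligopyrimidine sequence through which mTORC1 signalling controls translation. Tsc2 encodes a subunit of the complex that inhibits mTORC1.

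The annotated starts of the host genes are shown because this start sequence is the feature that links such genes to mTORC1. Entries for 6 of the 8 genes, all but Snhg4 and Snhg6, were taken from RefSeq (GRCm38.p6), with 2 for Gas5. Each line gives 10 bases before the annotated start and 20 from it, on the gene's strand. Capitals mark the longest run of C or T within 3 bases of the start.

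Gas5, upstream start: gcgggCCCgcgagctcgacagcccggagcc
Gas5, downstream start: ccatctcagCCTTTCggagctgtgcggcat
Snhg1: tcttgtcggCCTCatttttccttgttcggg
Snhg3: gaccacgcctgaCTTCCgggcgttacttaa
Snhg5: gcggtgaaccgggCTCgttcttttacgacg
Snhg8: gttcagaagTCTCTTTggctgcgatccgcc
Snhg12: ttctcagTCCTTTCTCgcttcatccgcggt

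The run was 9 bases long at Snhg12, 7 at Snhg8, 6 at the downstream start of Gas5 and 5 at Snhg3. It was 4 bases at Snhg1 and 3 bases at Snhg5 and at the upstream start of Gas5. A run of at least 5 was thus present within 3 bases of 4 of the 7 starts, in 4 of the 6 genes. By the same rule it was present at 26.1% of all 32851 starts in the RefSeq table, read on the gene's strand. The run of Snhg3 begins past the annotated start and not at it. The windows were chr1:161034591-161034620 and chr1:161035156-161035185 (plus strand) for Gas5 and chr19:8723477-8723506 (plus) for Snhg1. They were chr4:132353667-132353696 (minus) for Snhg3, chr9:88522878-88522907 (minus) for Snhg5, chr3:123508317-123508346 (minus) for Snhg8 and chr4:132308668-132308697 (plus) for Snhg12.

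In the GENCODE M21 annotation of the same assembly, 8 snoRNA symbols lay within Gas5 and 8 within Snhg1, 4 within Snhg12, 2 each within Snhg3 and Snhg5 and 1 each within Snhg6 and Snhg8. Each symbol was counted once, and a microRNA symbol within Gas5 that is typed as a snoRNA was left out. RefSeq placed 1, Snora74a, within Snhg4 on chromosome 18. Snhg12 and Snhg3 are neighbours on chromosome 4, on opposite strands and 37.0 kb apart. The snoRNAs themselves were not measured in any useful depth. Of the 27 snoRNA symbols only 9 had a row in the tables, 5 of these were listed at 0 in all 16 libraries, and none reached a mean of 10. The highest single value was 14.5 normalized reads, for Snord22 of Snhg1. What follows therefore describes reads counted for the host genes in poly(A)-selected RNA. Spliced and intron-retaining forms were not told apart.

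Values are read counts per gene that had been normalized by library, called normalized reads below, and the tables of total and polyribosomal RNA were normalized separately. Estimated depth was 24.7 to 139 M reads for total RNA and 51.8 to 268 M reads for polyribosomal RNA. NSC markers, including Nes, Sox2 and Vim, were above 0 in every library (10 of 10 with a mean of at least 10 in each group). In total RNA the targeted gene, Tsc2, ranged from 6232 to 7836 normalized reads in wild-type and 5592 to 7076 in mutant cultures (log2 change −0.10 ± 0.10 standard error, adjusted p = 0.42). It was lower in mutant polyribosomal RNA (log2 change −0.49 ± 0.15, adjusted p = 0.0389). Reads outside the deleted part can count towards these values, so they do not check the genotype. The paper reports that its NSC subcultures had lost Tsc2. It shows Western blots of the Tsc2 protein, tuberin, for the cultures of its other bulk RNA sequencing experiment. Wild-type culture 1 stood apart in its polyribosomal library, in which 7 of the 8 host genes had their lowest wild-type value, and values without it are given beside the results that it moves most.

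The first question was whether the level of the host transcripts in total RNA differed between genotypes. All 8 were lower in mutant cultures, and for none did the 4 mutant values overlap the 4 wild-type values. The fitted log2 change ran from −1.51 for Snhg6 to −0.55 for Gas5, with a median of −0.81, beside a median of 0.01 over all genes. All 8 passed the test (limma, adjusted p under 0.05), in a comparison where 20.7% of the 14967 genes tested were called lower and 20.3% were lower without overlap. The plot of values by culture shows the separation in total RNA and its absence for most of the genes in polyribosomal RNA.

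**Figure D1:**
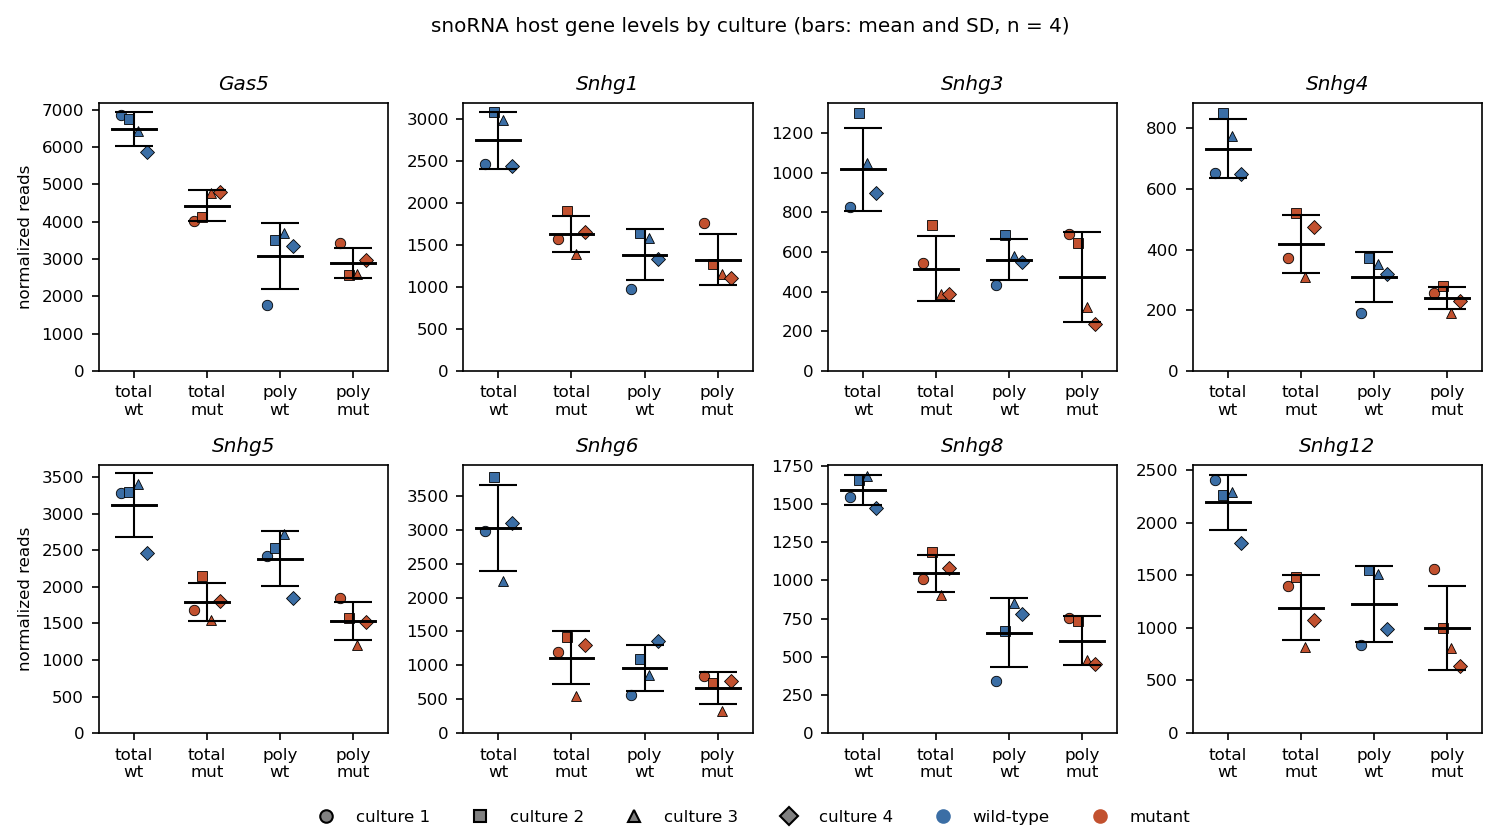
Normalized reads (linear axis from 0) of each host gene in total and polyribosomal (poly) RNA of wild-type (wt, blue) and mutant (mut, red) cultures. Each symbol is 1 culture and the bars give the mean and SD (n = 4). In total RNA every mutant culture lies below every wild-type culture for all 8 genes, whereas in polyribosomal RNA only Snhg5 shows no overlap.

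Among the box C/D hosts, Snhg6 (chr1:9941959-9944118, minus strand), host of Snord87, showed the largest change. Its total RNA values were 2986, 3784, 2243 and 3104 in wild-type cultures 1 to 4 and 1189, 1417, 548 and 1299 in mutant cultures 1 to 4. Mutant culture 3 was the lowest and the other 3 mutant cultures lay close together. The mutant mean was 0.368 of the wild-type mean (3029 ± 632 against 1113 ± 388, SD, n = 4; log2 change −1.51 ± 0.28, adjusted p = 0.0043).

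Gas5 (chr1:161034422-161038539, plus strand), named for its accumulation in growth-arrested cells and host of Snord47, Snord78 and Snord80 among others, had 6862, 6751, 6421 and 5856 normalized reads in wild-type and 4023, 4130, 4778 and 4790 in mutant cultures. The groups were tight and well apart. The mutant mean was 0.684 of the wild-type mean (log2 change −0.55 ± 0.09, adjusted p = 0.0032), the smallest change of the 8.

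Snhg1 (chr19:8723475-8726443, plus strand), host of Snord22 and other box C/D snoRNAs, had 2468, 3088, 2987 and 2444 in wild-type and 1574, 1905, 1398 and 1654 in mutant cultures. Its mutant mean was 0.595 of wild-type (log2 change −0.75 ± 0.12, adjusted p = 0.0030). Snhg5 (chr9:88521050-88522929, minus strand), host of Snord50a and Snord50b, had 3281, 3307, 3415 and 2469 in wild-type and 1690, 2149, 1544 and 1811 in mutant cultures. Wild-type culture 4 was below the other 3 but above every mutant culture. The mutant mean of Snhg5 was 0.577 of wild-type (log2 change −0.79 ± 0.13, adjusted p = 0.0033).

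The hosts of box H/ACA snoRNAs changed by similar amounts. Snhg3 (chr4:132348014-132353686, minus strand), host of Snora73a and Snora73b, had 828, 1298, 1046 and 895 in wild-type and 546, 737, 390 and 389 in mutant cultures (0.507 of wild-type; log2 change −1.01 ± 0.22, adjusted p = 0.0072). Both groups spread widely, and the highest mutant culture, culture 2, was near the lowest wild-type culture. The library kit did not mark strand, and 71.5% of the exonic bases of Snhg3 overlap an antisense noncoding gene, Gm17300, and 13.7% overlap Rcc1 on the same strand. Reads of these genes and of Snhg3 cannot be fully told apart. Rcc1, a nucleotide exchange factor for the Ran GTPase, was itself lower in mutant total RNA (log2 change −0.88 ± 0.16, adjusted p = 0.0040). Of Snhg6, 11.1% of exonic bases overlap Mcmdc2 on the other strand.

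Snhg12 (chr4:132308623-132311024, plus strand), which holds Snora16a, Snora44, Snora61 and the box C/D Snord99, had 2404, 2264, 2295 and 1807 in wild-type and 1399, 1488, 816 and 1072 in mutant cultures (0.544 of wild-type; log2 change −0.91 ± 0.18, adjusted p = 0.0055). Snhg4, host of Snora74a, had 654, 851, 775 and 650 in wild-type and 372, 519, 310.5 and 475 in mutant cultures (0.572 of wild-type; log2 change −0.82 ± 0.17, adjusted p = 0.0066). Snhg8 (chr3:123507552-123508404, minus strand), host of Snora24, had 1546, 1661, 1686 and 1478 in wild-type and 1011, 1188, 902 and 1084 in mutant cultures (0.657 of wild-type; log2 change −0.61 ± 0.10, adjusted p = 0.0035). Per kilobase of annotated exon, wild-type total RNA ran from 913 normalized reads for Snhg12 to 2643 for Snhg6 over the 7 genes with a GENCODE model. Exon length was the union of all annotated exons, which for Snhg1, Snhg8 and Snhg12 spans the whole gene, introns included. The range thus depends on annotation and does not rank the spliced transcripts.

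Markers of other cell types and of sex were examined beside this result. In total RNA, where 19.7% of all genes were called higher, all 8 oligodendrocyte markers rose in mutant cultures, from a summed 9014 to 10673 normalized reads in wild-type to 18538 to 25440 in mutant cultures, and all 8 rose in polyribosomal RNA too. Of 12 microglia markers 4 rose (33.3%), and the summed level was 2802 to 4835 in wild-type and 3433 to 22039 in mutant cultures, highest in mutant cultures 2 and 4. Without those 2 cultures all 8 host genes were still called lower (median log2 change −0.98). In that fit 3555 of all 14967 genes were called lower, beside 3091 with all cultures. That fit kept only mutant cultures 1 and 3, with summed microglia levels of 5297 and 3433. Of 6 choroid plexus markers tested 3 rose. The summed level of the whole list of 8 was 270 to 343 in wild-type and 497 to 3500 in mutant cultures, with Kl and Kcne2 at 0 in at least 1 wild-type library. Of 8 neuron markers 2 rose, a share near that of all genes, and the summed level was 1186 to 1379 in wild-type and 1358 to 2929 in mutant cultures. The part of the oligodendrocyte, microglia, choroid plexus and neuron signals in the result was not tested. In these bulk samples fewer cells of a type and less RNA per cell cannot be told apart.

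The summed level of 4 Y-linked genes ran from 258 to 5802 normalized reads in wild-type and 6.57 to 4775 in mutant cultures, since 3 wild-type cultures but only 1 mutant culture had a high level. Within these the mutant culture lay below the 3 wild-type cultures for 8 of 8 host genes in total RNA and 1 of 8 in polyribosomal RNA. The share of all genes lower in this way was not counted, so neither count can be read as particular to the host genes. With only 1 mutant culture this comparison cannot separate genotype from the Y-linked level. When the fit took the Y-linked level as a covariate, all 8 changes remained negative (median −0.70) and 4 of the 8 were called, with adjusted p from 0.0431 to 0.0957. In that fit 535 of all 14967 genes were called lower, beside 3091 without the covariate.

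The second question was whether the host transcripts recovered with polyribosomes differed likewise. Only Snhg5 passed the test, in a comparison where 11.9% of 14412 genes were called lower and 14.6% were lower without overlap. Its polyribosomal values were 2430, 2538, 2724 and 1849 in wild-type and 1846, 1580, 1207 and 1521 in mutant cultures. Wild-type culture 4 and mutant culture 1 were almost level. The mutant mean was 0.645 of wild-type (log2 change −0.63 ± 0.17, adjusted p = 0.0189). The call was lost without wild-type culture 2 or 3 (adjusted p = 0.0577 and 0.0618) and with the Y-linked covariate (log2 change −0.34, adjusted p = 0.28).

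The fitted change of the other 7 ran from −0.55 ± 0.33 for Snhg6 (adjusted p = 0.24) to −0.05 ± 0.21 for Gas5 (adjusted p = 0.88), and the median of all 8 was −0.33, beside 0.01 over all genes. With the Y-linked covariate the median was 0.09, 5 of the 8 changes were positive and none was called (0 at an unadjusted p under 0.05). In that fit 17 of all 14412 genes were called lower and 26 higher. No host gene was called higher by limma, and 0 had a higher level at an unadjusted p under 0.05. These intervals were wide. That of Gas5 ran from −0.52 to 0.42, that of Snhg1 from −0.49 to 0.37 and that of Snhg6 from −1.27 to 0.17. The total RNA change lay inside the polyribosomal interval for Snhg3, Snhg4, Snhg5, Snhg8 and Snhg12 and outside it for Gas5, Snhg1 and Snhg6.

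Gas5 had 1775, 3519, 3685 and 3354 polyribosomal normalized reads in wild-type and 3413, 2561, 2587 and 2967 in mutant cultures. Wild-type culture 1 was far below the other 3 wild-type cultures, and mutant culture 1 was the highest of its group. Without wild-type culture 1 the change of Gas5 was −0.30 ± 0.14 (adjusted p = 0.16). Snhg8 behaved in the same way, with 340, 666, 852 and 777 in wild-type and 755, 735, 480 and 453 in mutant cultures, and its log2 change went from −0.08 to −0.37 without that culture.

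Snhg1 had 974, 1641, 1581 and 1328 in wild-type and 1763, 1274, 1153 and 1104 in mutant cultures. Snhg12 had 840, 1547, 1514 and 989 in wild-type and 1560, 995, 806 and 633 in mutant cultures. In both genes culture 1 was the lowest of the wild-type and the highest of the mutant cultures. Snhg3 had 435, 685, 578 and 548 in wild-type and 692, 645, 323 and 236 in mutant cultures, a spread within the mutant group larger than the difference of the means. Snhg6 had 558, 1095, 859 and 1355 in wild-type and 842, 733, 326 and 762 in mutant cultures, and Snhg4 had 192, 374, 354 and 321 against 257, 281, 192 and 231. For both, 3 of the 4 wild-type cultures were above the mutant mean, and wild-type culture 1 was not. Without wild-type culture 1 the median log2 change of the 8 genes was −0.49, and Snhg5 was still the only one called, while 3 had an unadjusted p under 0.05 (19.3% of all genes with all 8 libraries).

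**Figure D2:**
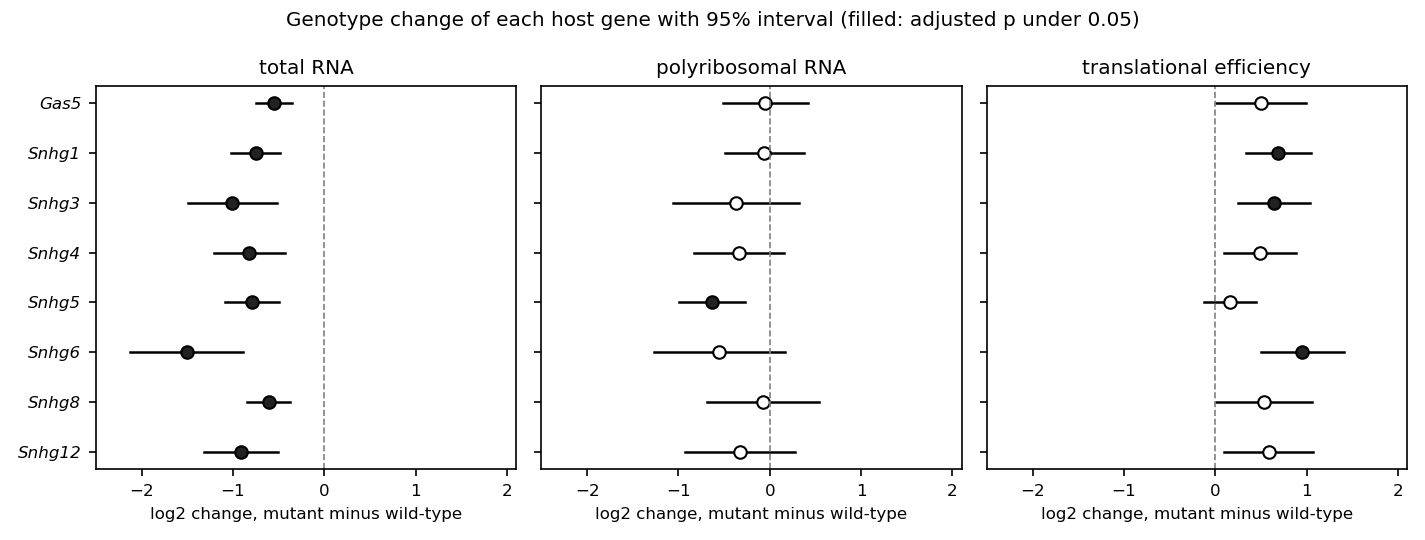
Log2 change (mutant minus wild-type, log2 scale) of each host gene in total RNA, polyribosomal RNA and translational efficiency, with 95% intervals from limma. Filled points have an adjusted p under 0.05. All 8 total RNA points are negative and filled, 1 polyribosomal point is filled, and all 8 translational efficiency points are positive with 3 filled.

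The third question was whether the share of each host transcript found with polyribosomes differed by genotype. The polyribosomal to total ratio of a culture was taken as its translational efficiency, the term used in the field. For a noncoding host it describes recovery with polyribosomes and not protein output. As the tables were normalized separately, a ratio has meaning only beside other genes. Its median over 14333 genes was 0.842 to 0.894 in every culture.

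In wild-type cultures the host genes had low ratios. Ranked among all genes, the mean percentile over the 4 wild-type cultures was 9.57 for Snhg6, 16.1 for Snhg8, 16.3 for Snhg4, 21.2 for Gas5, 22.3 for Snhg1, 26.6 for Snhg3, 26.9 for Snhg12 and 42.5 for Snhg5. Snhg5 had the tightest values, from the 41.6 to the 44.2 percentile, whereas Gas5 ranged from 4.95 in wild-type culture 1 to 28.0. Neighbours in this order overlapped from Snhg6 to Snhg12, while Snhg5 lay above the wild-type values of Snhg12. The median of the 8 was the 21.7 percentile, beside 14.6 for 12 other noncoding hosts, 52.7 for 32 protein-coding snoRNA hosts and 10.2 for 10 nuclear long noncoding RNAs. Rian was ranked both among the other noncoding hosts and among the nuclear RNAs.

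In mutant cultures all 8 ranked higher on average, from the 27.4 percentile for Snhg8 to 48.8 for Snhg3, with a median of 39.1. The interaction of genotype and fraction was positive for all 8 (median log2 change 0.56, beside 0.01 over all genes, of which 51.8% were above 0). The test was passed by 3 of 8, Snhg1, Snhg3 and Snhg6, where 5.07% of genes were called higher, and 7 of 8 had an unadjusted p under 0.05, beside 13.6% of genes. The median was 0.35 without wild-type culture 1, when 3 of 8 were called and 3 had an unadjusted p under 0.05. In that fit 1496 of 14333 genes were called higher, beside 727 with all cultures. Without mutant culture 1 the median was 0.42, 1 was called and 3 had an unadjusted p under 0.05, while 189 genes in all were called higher. No host gene was called lower by limma (0 at an unadjusted p under 0.05), beside 7.89% of genes.

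The ratio of Snhg6 was 0.187, 0.289, 0.383 and 0.437 in wild-type and 0.708, 0.517, 0.595 and 0.587 in mutant cultures. The groups did not overlap (log2 change 0.96 ± 0.21, adjusted p = 0.0122). Without wild-type culture 1, the lowest, the change was 0.71 ± 0.15 (adjusted p = 0.0021). The ratio of Snhg1 was 0.395, 0.531, 0.529 and 0.543 in wild-type and 1.12, 0.669, 0.825 and 0.667 in mutant cultures, again without overlap (log2 change 0.69 ± 0.17, adjusted p = 0.0149). Without wild-type culture 1 it was 0.58 ± 0.16 (adjusted p = 0.0096). By the raw ratio Snhg1 and Snhg6 were the 2 of 8 without overlap, where 8.16% of all genes were higher without overlap. After subtracting each culture's median gene, as plotted, Snhg3 and Snhg4 did not overlap either, both by a small margin (lowest mutant −0.47 and highest wild-type −0.51 for Snhg3, −0.79 and −0.82 for Snhg4). The share of all genes without overlap after this subtraction was not counted, and the 8.16% does not apply to it.

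The ratio of Snhg3 was 0.525, 0.528, 0.552 and 0.613 in wild-type and 1.27, 0.875, 0.829 and 0.606 in mutant cultures. The wild-type cultures were nearly level, and mutant culture 4 fell among them by this raw ratio (log2 change 0.64 ± 0.19, adjusted p = 0.0344). Without wild-type culture 1 the adjusted p of Snhg3 was 0.0225, and without mutant culture 1 it was 0.12 (log2 change 0.46). Leaving out mutant culture 1 also lost the call of Snhg1 (log2 change 0.53, adjusted p = 0.0569), which left 1 of the 3. The call of Snhg3 was further lost without wild-type culture 2 or 3 or mutant culture 2 or 3 (adjusted p from 0.0637 to 0.0870) and with no filter on low values (adjusted p = 0.0549).

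The other 5 did not pass. Gas5 had ratios of 0.259, 0.521, 0.574 and 0.573 in wild-type and 0.848, 0.620, 0.541 and 0.619 in mutant cultures (log2 change 0.50 ± 0.23, adjusted p = 0.16), and without wild-type culture 1 the change was 0.22 ± 0.14. Snhg8 had 0.220, 0.401, 0.505 and 0.526 against 0.747, 0.619, 0.532 and 0.418 (0.53 ± 0.25, adjusted p = 0.16), or 0.26 without that culture. Snhg12 had 0.349, 0.683, 0.660 and 0.547 against 1.11, 0.669, 0.988 and 0.591 (0.58 ± 0.23, adjusted p = 0.10), or 0.37 without it. In these 3 genes wild-type culture 1 lay far below its group and mutant culture 1 was the highest of all. Snhg4 had 0.294, 0.439, 0.457 and 0.493 against 0.690, 0.541, 0.620 and 0.487 (0.49 ± 0.19, adjusted p = 0.092), or 0.33 without wild-type culture 1, the lowest of its group (adjusted p = 0.17).

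Snhg5 differed least, with 0.740, 0.767, 0.798 and 0.749 in wild-type and 1.09, 0.735, 0.782 and 0.840 in mutant cultures (log2 change 0.16 ± 0.13, interval −0.12 to 0.44, adjusted p = 0.45). Without mutant culture 1 the change was 0.040. Its total and polyribosomal levels were both called lower. Mutant culture 1 was its only value above the culture's median gene.

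The 3 calls depended on limma's moderation and on pairing the libraries of a culture. None of the 8 was called by limma without trend and robust moderation (4 with an unadjusted p under 0.05, lowest adjusted p = 0.0586), without culture as a block (1 unadjusted, lowest adjusted p = 0.20) or with the Y-linked covariate (6 unadjusted, lowest adjusted p = 0.0725). The fitted change was positive for 8 of 8 in each. In each of these fits 0 of all 14333 genes were called higher and 0 lower, so the losses were not particular to the host genes.

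**Figure D3:**
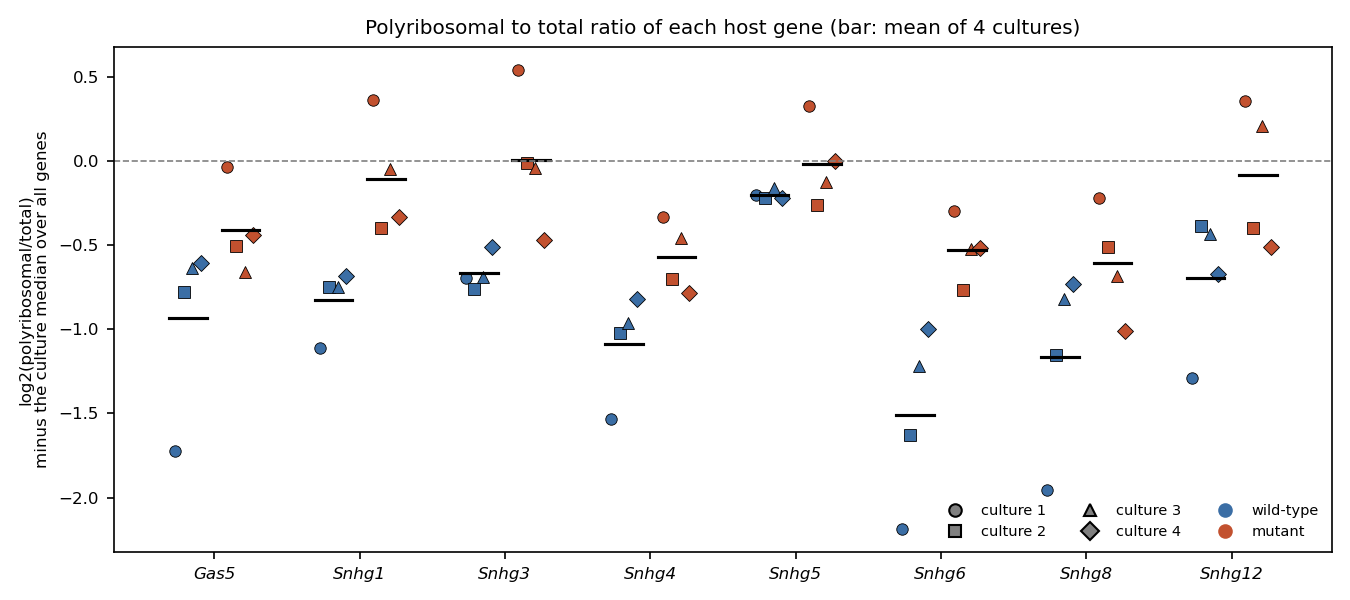
Polyribosomal to total ratio of each host gene in each culture, as log2(polyribosomal/total) minus the culture's median over 14333 genes, so that 0 is the median gene. Symbols are cultures, blue wild-type and red mutant, and bars are means of 4 cultures. Wild-type points lie below 0 for all 8 genes, wild-type culture 1 is the lowest for Gas5, Snhg1, Snhg4, Snhg6, Snhg8 and Snhg12, and mutant culture 1 is the highest for each gene.

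The host genes varied together between cultures of 1 group. After subtracting each group's mean log2 level, the 28 pairs of genes had a Pearson r over the 16 libraries from 0.17 to 0.87, with a median of 0.62. The libraries of a pair share depth and normalization, so r is a description. Snhg1 followed the mean of the other 7 most closely (r = 0.92) and Snhg5 least (r = 0.53). The closest pair was Snhg1 and Snhg12 (r = 0.87), and the neighbours Snhg3 and Snhg12 had r = 0.81. The mean deviation of the 8 was lowest in the polyribosomal library of wild-type culture 1 (−0.53) and highest in that of mutant culture 1 (0.41). In total RNA these cultures were near their group means (−0.04 and 0.02), whereas mutant culture 3 was low in both fractions (−0.34 and −0.35). Outside the gene lists, the genes most like the mean of the 8 were Tor2a, a torsin-family ATPase (r = 0.95), Smim20 (r = 0.93), Psmg4, a proteasome assembly chaperone (r = 0.93), Scarb1, a lipoprotein receptor (r = 0.92), and 5430416N02Rik (r = 0.91). The median r over all genes was 0.04.

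Other noncoding snoRNA hosts were compared next. In total RNA 4 of 13 fell, 1 rose and 8 did not pass, where 20.7% of all genes were called lower and 19.7% higher. Those that fell were Epb41l4aos (log2 change −0.60 ± 0.10), Snhg15 (−0.54 ± 0.11), Snhg17 (−0.61 ± 0.14) and Zfas1 (−0.43 ± 0.10). Snhg11, named after its value was seen, rose (0.78 ± 0.24, adjusted p = 0.0269). The median was −0.43. With the Y-linked covariate 1 fell and none rose, and without mutant culture 2, 8 fell. Of all 14967 genes 535 fell and 528 rose with that covariate, and 3416 fell without that culture. Snhg11 was not called without wild-type culture 2, 3 or 4 or mutant culture 1 or 3. In polyribosomal RNA 1 of 12 rose, Snhg9 (1.12 ± 0.29, adjusted p = 0.0181), where 11.7% of all genes were called higher, and none fell by limma (0 at an unadjusted p under 0.05). None was called higher without wild-type culture 2 or mutant culture 1 or with the Y-linked covariate, and 3 were without wild-type culture 4 or mutant culture 4. With the covariate 26 of all 14412 genes were called higher. Snhg9 was a low-level transcript, with 24.3, 26.0, 38.3 and 31.5 polyribosomal normalized reads in wild-type and 71.5, 79.2, 39.7 and 81.8 in mutant cultures.

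In translational efficiency 3 of these 12 were called higher, Snhg10 (1.03 ± 0.31, adjusted p = 0.0413), Snhg9 (1.06 ± 0.33, adjusted p = 0.0459) and Snhg15 (0.80 ± 0.25, adjusted p = 0.0482). All 12 changes were positive. Over all genes 5.07% were called higher and 51.8% of changes were above 0. Without wild-type culture 1 the fitted changes were 0.69, 0.93 and 0.51, and 2 of the 12 were called. None was called without wild-type culture 2, mutant culture 1 or mutant culture 4, under ordinary moderation, without the culture block or with the Y-linked covariate, and 1 was without wild-type culture 3 or mutant culture 2 or 3. Under ordinary moderation, without the block or with the covariate, 0 of all 14333 genes were called. Snhg15 resembled the 8 in its values, with ratios of 0.246, 0.535, 0.578 and 0.544 in wild-type and 1.11, 0.728, 0.717 and 0.660 in mutant cultures.

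Protein-coding snoRNA hosts, mostly ribosomal protein and translation factor genes, fell in both fractions. In total RNA 29 of 32 fell (median −0.59), among them Rpl5 (−0.65 ± 0.08), Rps12 (−0.67 ± 0.10), Rack1 (−0.58 ± 0.09) and Rpsa (−0.71 ± 0.11). In polyribosomal RNA 24 of 32 fell (median −0.56), among them Rcc1 (−0.91 ± 0.13), Eef2 (−0.66 ± 0.11), Rpl3 (−0.63 ± 0.12) and Rpl10 (−0.62 ± 0.12). Their polyribosomal to total ratio was called in 2 of 32, lower for the elongation factor Eef2 (−0.55 ± 0.12) and higher for Rps12 (0.47 ± 0.14), with a median of 0.05. In total RNA 18 of 32, and in polyribosomal RNA 0, were called lower with the Y-linked covariate. Over all genes 535 of 14967 and 17 of 14412 were called lower in those fits. Neither ratio was called under ordinary moderation, without the culture block or with that covariate, and that of Rps12 was not called without wild-type culture 1, 2 or 3 or mutant culture 1, 2 or 4. Under ordinary moderation, without the block or with the covariate, the ratio was called for 0 of all 14333 genes. Over all genes 20.7% were called lower in total RNA and 11.9% in polyribosomal RNA. On the ratio 7.89% were called lower and 5.07% higher. The difference between coding and noncoding hosts was not tested.

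The proteins that assemble with snoRNAs fell as well. In total RNA 18 of 18 snoRNP proteins and assembly factors fell (median −0.76), among them the helicases Ruvbl1 (−0.76 ± 0.13) and Ruvbl2 (−0.91 ± 0.15), the H/ACA protein Nhp2 (−0.92 ± 0.16) and the C/D protein Snu13 (−0.79 ± 0.14). In polyribosomal RNA 10 of 18 fell, among them Gar1 (−0.87 ± 0.14) and Ruvbl2 (−0.73 ± 0.12). The ratio rose in 4 of 18, Nop10 (0.78 ± 0.13), Nhp2 (0.47 ± 0.12), Snu13 (0.52 ± 0.14) and Znhit3 (0.46 ± 0.14). Beside these, 20.7% of all genes were called lower in total RNA, 11.9% lower in polyribosomal RNA and 5.07% higher on the ratio. With the Y-linked covariate 4 of 18 were called lower in total RNA and 0 in polyribosomal RNA, beside 535 of all 14967 and 17 of 14412 genes. The 4 calls on the ratio became 1 without wild-type culture 2 or 3 or mutant culture 1, 2 without mutant culture 3, and 0 under ordinary moderation, without the culture block or with that covariate. In the fits that left 0, none of all 14333 genes was called (0 lower and 0 higher). Dkc1, Nop56 and Nop58 are both snoRNP proteins and hosts of snoRNAs and count in both lists.

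Of 10 nonsense-mediated decay factors, Smg5 fell in total RNA (−0.33 ± 0.10, adjusted p = 0.0254) and Smg5 (−0.52 ± 0.14) and Upf1, the central helicase of the pathway (−0.58 ± 0.16), fell in polyribosomal RNA. The ratio of Upf1 fell (−0.53 ± 0.15, adjusted p = 0.0271) and the other 9 were not called. Over all genes 20.7% were called lower in total RNA, 11.9% in polyribosomal RNA and 7.89% on the ratio. The call of Smg5 in total RNA was lost without wild-type culture 1 or 2, that of Upf1 on the ratio without wild-type culture 2 or 3 or mutant culture 1 or 4, and the polyribosomal count was 1 without wild-type culture 1 or 2 and 0 without wild-type culture 3. None of the 10 was called in any comparison with the Y-linked covariate. In those fits 535 of all 14967 genes were called lower in total RNA, 17 of 14412 in polyribosomal RNA and 0 of 14333 on the ratio. Long noncoding RNAs listed as nuclear, which are also untranslated, went mostly the other way in total RNA. Their location was not measured, and Rian counts both here and among the other noncoding hosts. In total RNA 5 of 10 rose, among them Neat1 (2.31 ± 0.31), Malat1 (1.15 ± 0.24) and Firre (0.56 ± 0.13), and 1 fell, Sox2ot (−0.71 ± 0.19, named after its value was seen). Over all genes 19.7% were called higher and 20.7% lower. In polyribosomal RNA 2 of 10, Neat1 (1.77 ± 0.28) and Malat1 (1.03 ± 0.31), rose, where 11.7% of all genes were called higher. Their ratio was called for Pvt1 only (0.42 ± 0.13, adjusted p = 0.0397), where 5.07% of all genes were called higher, and the median change was −0.15. With the Y-linked covariate 3 of 10 rose in total RNA and none was called in the other 2 comparisons. Over all genes 528 of 14967 rose in total RNA, 26 of 14412 in polyribosomal RNA and 0 of 14333 on the ratio. The polyribosomal count was 1 without wild-type culture 1 or 2 or mutant culture 2 or 3. The ratio of Pvt1 was not called without wild-type culture 2 or 3 or mutant culture 1, 3 or 4, and without wild-type culture 1 the ratio was called higher for 2 of the list and lower for 3.

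**Figure D4:**
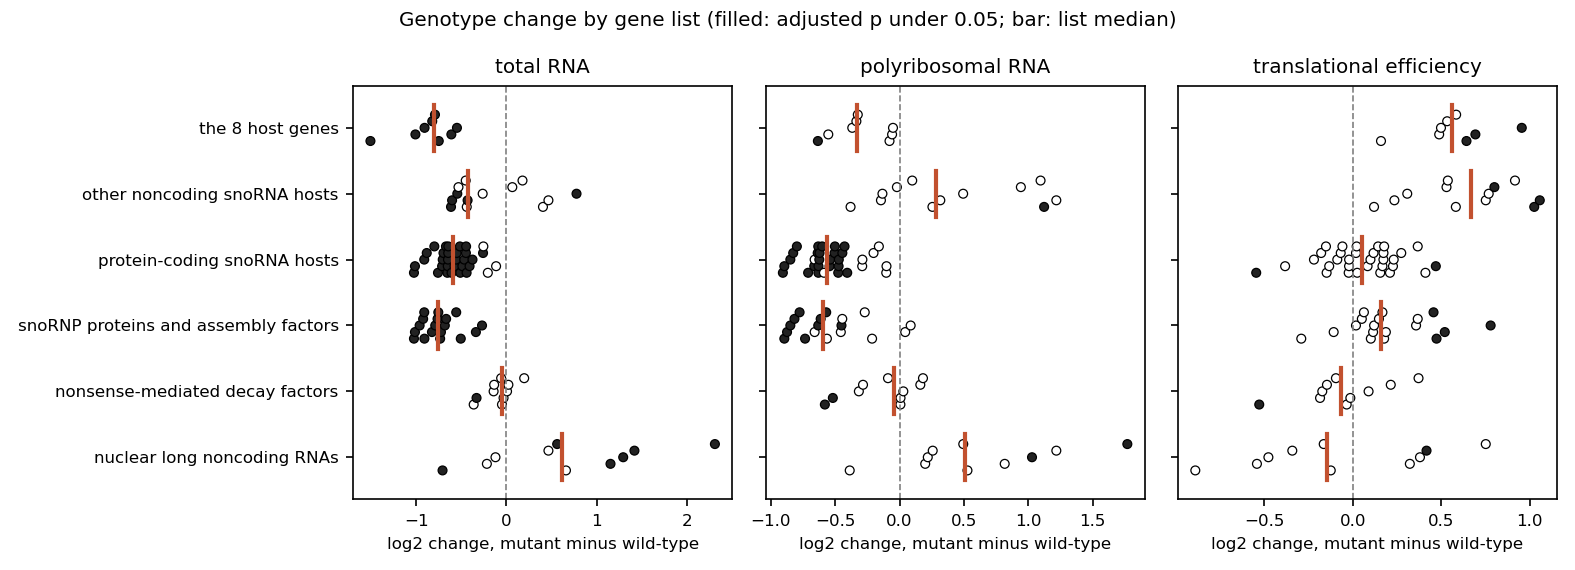
Log2 change (mutant minus wild-type, log2 scale) of every tested gene in 6 gene lists, for total RNA, polyribosomal RNA and translational efficiency. Each circle is a gene, filled where the adjusted p is under 0.05, the red bar is the list median, and vertical offsets only separate the circles. The 8 host genes have medians of −0.81, −0.33 and 0.56, while the protein-coding hosts have −0.59, −0.56 and 0.05.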

How the data were processed

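Neural stem cell cultures were treated with cycloheximide for 15 minutes, and the heavy 3 mL of a 17.5% to 50% sucrose gradient was kept as polyribosomal RNA. The libraries were poly(A)-selected and unstranded. The authors aligned reads with STAR to mm10 and normalized counts with DESeq2, and the deposited values are a signal, namely normalized read counts. Counter and annotation: not given in the sources used here. Both tables held 24972 rows, and 26 with names turned into dates were left out. Depth was estimated as the column sum divided by the value of 1 read, seen as a step among low values.

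Values were tested with limma 3.58.1 (R 4.3.3) on log2(value + 1), with trend, robust moderation and Benjamini-Hochberg adjustment over genes with a mean of at least 10. This scale understates changes of low genes. The ± after a log2 change is its standard error. Translational efficiency was the interaction of genotype and fraction over 16 libraries with culture as a block, where constants of the tables cancel. Both libraries of a culture come from the same cells, and their deviations correlated in every culture (r from 0.23 to 0.73). A number shared by a wild-type and a mutant culture pairs nothing. The script was tested on simulated data. The 8 genes and the other lists were chosen with earlier results of these data known. Named genes were all 8, up to 4 per other list by p, and the 5 most alike by r. Snhg16 was not found.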

Additional observations from a re-analysis of the deposited data

Results flagged for a closer look

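A gap between 1 culture and the other 3 of its group was larger than the 95% limit for 4 samples in 3 of 48 groups tested, where chance gives about 1 in 20. In wild-type culture 1 the log2 polyribosomal to total ratio minus the culture median was −1.72 for Gas5 and −1.11 for Snhg1, below the other 3 wild-type cultures. In wild-type culture 4 the total RNA level of Snhg5 was 2469 normalized reads, below the other 3.

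The genotype effect differed between polyribosomal and total RNA for 3 genes by the interaction test, by a log2 change of 0.69 for Snhg1, 0.64 for Snhg3 and 0.96 for Snhg6.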

How the results depend on the processing

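In total RNA the count of 8 lower was the same under every alternative but the Y-linked covariate, which left 4. In polyribosomal RNA 1 was lower, 0 with that covariate and 0 to 1 when 1 culture was left out, with 1 called under the replicate block. In translational efficiency 3 were higher, 0 under ordinary moderation, 0 with the Y-linked covariate and 0 without the replicate block, and 1 to 3 when 1 culture was left out. Over all genes 189 to 1496 were called higher when 1 culture was left out. Snhg12 was also called there without mutant cultures 2 and 4 (0.95). Same-numbered wild-type and mutant cultures did not deviate together (r from −0.13 to 0.13).

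Some polyribosomal changes that were not called changed sign, including those of Snhg3 and Snhg12, which were −0.37 and −0.32. With equal column totals they were 0.074 for Gas5, 0.067 for Snhg1 and 0.047 for Snhg8. Without mutant cultures 2 and 4 they were 0.0035 for Gas5 and 0.075 for Snhg1. With the Y-linked covariate they were 0.044 for Gas5, 0.25 for Snhg1, 0.21 for Snhg3, 0.13 for Snhg8 and 0.28 for Snhg12. Leaving out 1 culture gave −0.30 to 0.054 for Gas5, −0.22 to 0.035 for Snhg1 and −0.37 to 0.073 for Snhg8. The mean wild-type ratio percentile moved to 23.6 for Snhg3 and 39.4 for Snhg5 among genes with a mean of at least 100. The cause was not tested.

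Over all genes, 3091 were lower and 2944 higher in total RNA, 1713 and 1690 in polyribosomal RNA and 1131 and 727 in translational efficiency. Equal column totals moved the median of all genes to 0.11 and 0.13 in the first 2 and the calls to 2263 and 3833, 929 and 2583, and 946 and 920. The Y-linked covariate left 535 and 528, 17 and 26, and 0 and 0. Ordinary moderation and the fit without the replicate block gave 0 in translational efficiency.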
